A study of Mus musculus with 5 samples.

Results

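Paraquat was compared with no treatment at day 8 of the reprogramming of mouse embryonic fibroblasts (MEFs, connective-tissue cells grown from embryos) of the ICR strain. The comparison uses 2 of the 5 RNA sequencing libraries of the series, chosen by their titles: 1 library of paraquat-treated cells and 1 of untreated control cells. The other libraries were 1 given mastoparan (a peptide from wasp venom) at day 8, and 1 each of cells expressing Flag (the control) and cells expressing CypD (cyclophilin D, encoded by Ppif) at day 4. Their values are given for scale, and mastoparan was set against the same day-8 control, so those ratios are not independent. The genotype label gives all 3 day-8 libraries as expressing CypD, whereas the series design names only the treatments. Ppif had 90 counts in the control, 79 in the paraquat and 95 in the mastoparan library at day 8, against 112 in the Flag and 2629 in the CypD library at day 4. The sources used here do not give the dose of paraquat, the factors introduced, or whether a library came from 1 or several animals or cultures.

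Each group was 1 library, so the differences carry no replicate check and no test between conditions was possible. The intervals in parentheses are 95% Clopper-Pearson (exact binomial) limits on the fold, and cover counting error only. Libraries were shallow, with total expected counts of 3016439 in the control and 2426015 in the paraquat library, and from 2497736 to 3426702 in the other 3. The CPM of a gene is its count per 1000000 counts of the TMM-scaled library total, and a count of 3, the floor used for a gene with no reads, equals 0.973 CPM in the control and 1.30 in the paraquat library. The log2 ratio of a gene is log2(CPM + 0.5) in the paraquat library minus that in the control, which understates the difference of low genes. It was taken for the 13651 genes whose day-8 mean reached 1 CPM. The labelled cell type was checked against 10 fibroblast markers. All 10 had counts in every library, and they summed to 6333 CPM in the control and 6155 CPM in the paraquat library, so fibroblast transcripts were abundant in both. The largest part came from Vim, at 3406 and 3587 CPM. Single markers went both ways, such as Thy1 (66.5 and 77.1 CPM) and Col3a1 (359 and 265 CPM). Nanog, Esrrb, Zfp42, Dppa5a, Utf1 and Lin28a, which mark established pluripotent cells, summed to 9.73 and 7.36 CPM, with Lin28a at 0 in all 5 libraries and Esrrb at 0 under paraquat.

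Paraquat is a bipyridinium herbicide that takes an electron from cellular reductases and passes it to oxygen, which makes superoxide and restores the compound, so that it cycles. Superoxide dismutases turn superoxide into hydrogen peroxide, which catalase, glutathione peroxidases and peroxiredoxins then remove. Oxidants and electrophiles also release the transcription factor NRF2 (Nfe2l2) from its inhibitor KEAP1, and NRF2 binds with small MAF proteins to antioxidant response elements in the promoters of detoxification and antioxidant genes. In reprogramming, introduced transcription factors convert fibroblasts toward a pluripotent state while the fibroblast program is switched off and epithelial genes come on.

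Because the antioxidant response element connects the treatment to named genes, its core, TGACNNNGC on either strand, was searched in RefSeq promoters (GRCm38.p6, from 250 bases before to 50 after each start). It occurred in 4071 of 32851 promoters (12.4%), and in 17 of the 68 promoters (25%) of antioxidant genes. These 17 promoters belong to 16 of the 51 antioxidant genes, of 61 listed, that have a promoter in that table. The windows below hold matches of 5 genes described with the antioxidant lists, printed 5′ to 3′ on the gene's strand with the match in capitals. They lie at chr3:122245407-122245447 (Gclm, plus strand), chr10:82859098-82859138 (Txnrd1, plus strand), chr5:65435950-65435990 and chr5:65435912-65435952 (both Ugdh, minus strand), chr4:116685450-116685490 (Prdx1, plus strand) and chr16:90220690-90220730 (Sod1, plus strand).
Gclm: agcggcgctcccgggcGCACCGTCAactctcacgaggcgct
Txnrd1: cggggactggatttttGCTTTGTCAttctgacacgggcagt
Ugdh, first match: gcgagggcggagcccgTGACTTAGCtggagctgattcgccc
Ugdh, nearer the start: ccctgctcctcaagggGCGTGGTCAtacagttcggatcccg
Prdx1: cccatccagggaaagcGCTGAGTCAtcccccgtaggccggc
Sod1: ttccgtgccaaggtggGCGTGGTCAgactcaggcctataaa
The first Ugdh match reads TGACTTAGC on the gene's strand, and the other 5 read in the opposite direction. A match is a description of the letters and not evidence of binding.

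Of the 13651 genes, 325 (2.38%) were at least 2-fold higher and 479 (3.51%) at least 2-fold lower in the paraquat library. On deposited TPM the split was 251 and 799, with the median of all genes at -0.29 in place of -0.03. At 1.5-fold, the threshold used for gene lists, 8.15% of genes were higher and 10.5% lower. Against the same control, mastoparan had 213 (1.56%) higher and 304 (2.23%) lower at 2-fold, and 5.01% and 5.87% at 1.5-fold. Most of these genes had few counts. At a mean of at least 20 CPM, 23 (0.291%) were higher and 28 (0.354%) lower with paraquat, against 5 and 5 (0.0633% each) with mastoparan. The standard deviation of the log2 ratios at that level was 0.34 for paraquat, 0.19 for mastoparan and 0.20 for CypD against Flag. Some of the extreme ratios belong to genes whose sequence is largely repeated elsewhere, for which reads can be assigned to either copy. Without genes for which 20% or more of the 49-base windows recur in another gene, there remained 12 higher (0.163% of 7351) and 16 lower (0.218%).

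The genes with little shared sequence that were lower came from several functions. Next to Klf4 and the nuclear import receptor gene Ipo7, they included Tfdp1, the dimerization partner of the E2F cell-cycle factors (chr8:13338751-13378448 in mm10, plus strand). Tfdp1 had 240 counts in the control, 207 in the mastoparan, 67 in the paraquat, 422 in the Flag and 424 in the CypD library. It was lowest under paraquat, 2.68 times lower than the control (interval 2.04 to 3.57), with a log2 ratio of -1.41. Eln encodes elastin, the protein of elastic fibres (chr5:134702593-134747323, minus strand). It had 195, 176, 63, 94 and 171 counts in the same order, and was 2.32 times lower than the control (1.74 to 3.13). In bulk RNA, fewer cells of a type and less RNA per cell cannot be told apart.

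Ogdhl, a relative of the oxoglutarate dehydrogenase subunit, had 98 counts in the control and 33 in the paraquat library (2.22 times lower, 1.48 to 3.41). Rasa1, a GTPase-activating protein for RAS, had 86 and 30 (2.15 times lower, 1.40 to 3.37). Atp12a, a proton and potassium pump, had 121 and 42 (2.16 times lower, 1.51 to 3.14). Mllt10, a cofactor of histone H3 lysine methylation, had 93 and 33 counts, and Cep192, a scaffold of the centrosome, had 94 and 34. Mia2, which takes part in export from the endoplasmic reticulum, had 165 and 59. The calcium-dependent membrane binders Cpne1 (171 and 60 counts) and Esyt3 (90 and 28) complete the named protein-coding genes besides Zfp146 and Ccdc88c. Of all 16 lower genes, Esyt3 and Atp12a were not lowest in the paraquat library among the 5: both were lower still in the CypD library at day 4.

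On the higher side, Chpt1, which makes phosphatidylcholine in its last step, had 58 counts in the control, 64 in the mastoparan and 102 in the paraquat library, and 89 and 117 in the Flag and CypD libraries. It was 2.35-fold higher than the control (1.69 to 3.30). Nol4l had 122, 104, 211, 103 and 122 counts (2.31-fold higher, 1.84 to 2.91). Cpne8, another calcium-dependent membrane binder, had 113 counts in the control and 183 in the paraquat library (2.16-fold, 1.70 to 2.76). Uxt, a prefoldin-like chaperone, had 64 and 107 (2.23-fold, 1.62 to 3.09). LTO1, which helps to deliver iron-sulfur clusters, had 169 and 279 (2.21-fold, 1.82 to 2.69), with 17.4% of its windows shared. In CPM each of these genes was highest in the paraquat library among the 5.

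**Figure D1:**
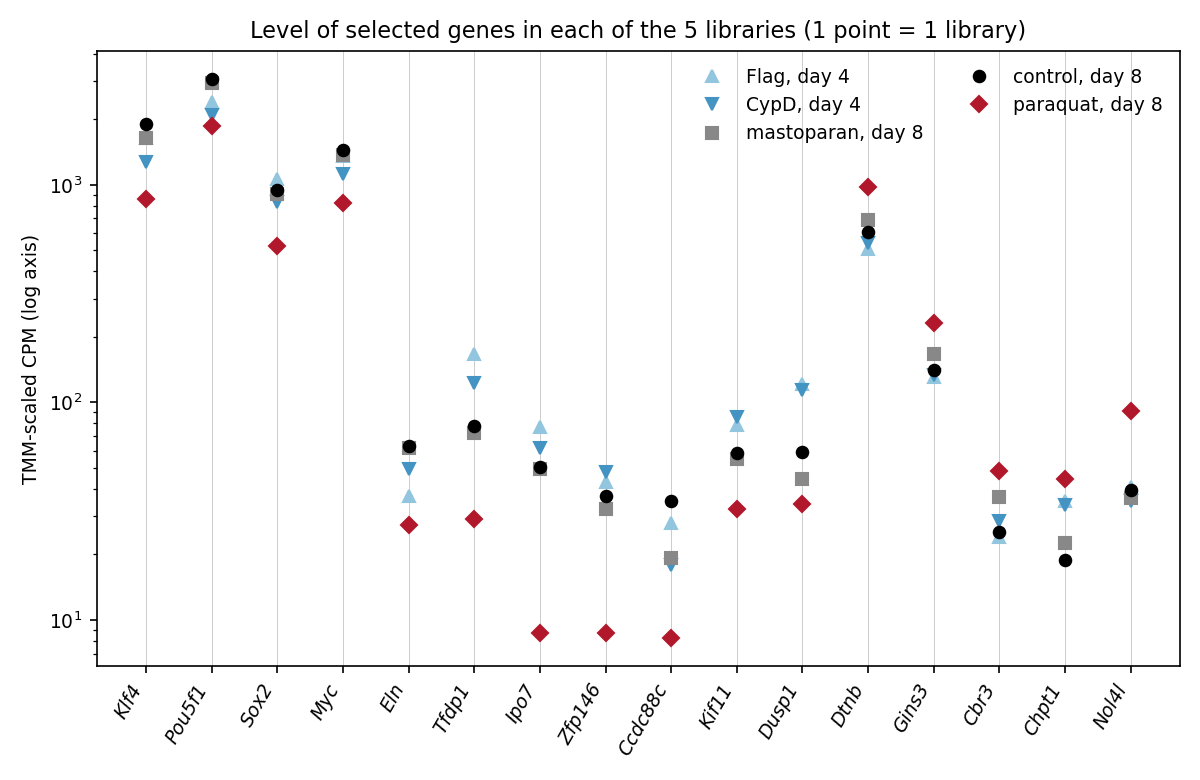
Level of 16 selected genes in each of the 5 libraries, in TMM-scaled CPM on a log axis, with 1 point for each library. The red diamonds (paraquat, day 8) lie below the other 4 libraries for the 11 genes from Klf4 to Dusp1, and above them for the 5 genes from Dtnb to Nol4l.

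The ratios followed transcript length. With genes cut into 5 equal groups by the deposited length, the median log2 ratio was 0.29 in the shortest group (99 to 1349 bases), then 0.05, -0.06 and -0.14, and -0.19 in the longest (4132 bases and over). The share of genes above 0 went from 76.8% through 57.0%, 41.6% and 34.0% to 27.7%. The gap between the longest and shortest group was thus -0.48. Mastoparan against the same control had a gap of -0.08, and CypD against Flag one of -0.15. Low genes did not carry it alone: at a mean of at least 100 CPM it was -0.57, with group medians of 0.44, 0.18, 0.05, -0.06 and -0.13. Groups of mostly short or mostly long transcripts therefore have different baselines. For this reason each ratio was also taken with the length trend removed, by subtracting the median of the gene's bin among 40 bins of length. That value is printed for part of the genes only, and ratios printed without it still hold the trend. With the trend removed, 312 genes (2.29%) passed 2-fold upward and 454 (3.33%) downward, and 6.58% and 8.48% passed 1.5-fold. What made the ratios follow length was not tested.

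**Figure D2:**
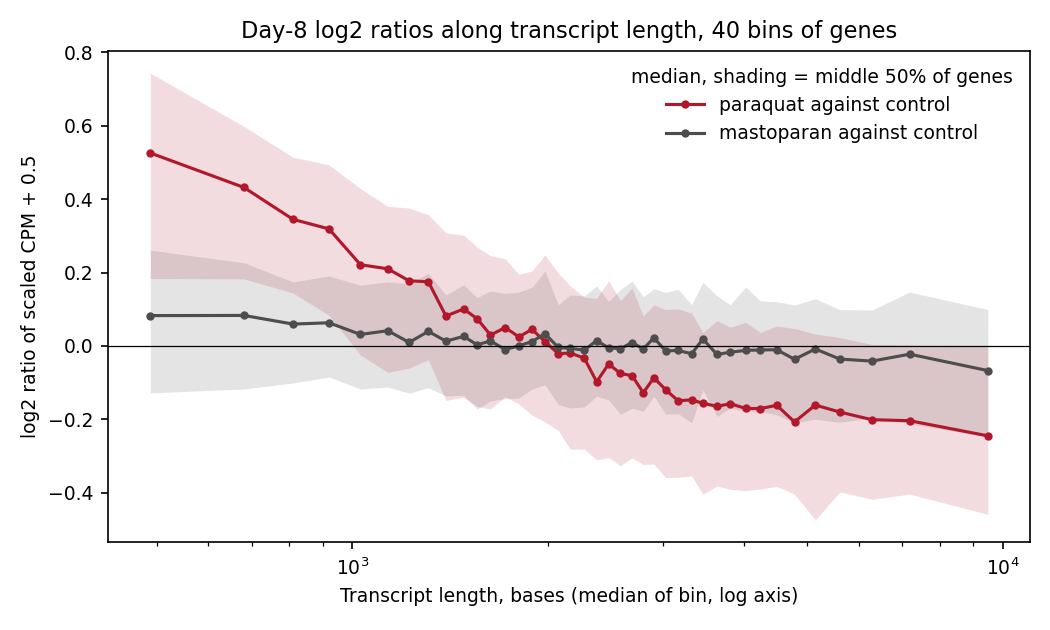
Median log2 ratio (vertical axis) in 40 bins of genes by transcript length in bases (log axis), with shading for the middle 50% of genes. The paraquat line (red) goes from above 0 for short to below 0 for long transcripts, whereas the mastoparan line (grey), from the same control, stays near 0.

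All 4 reprogramming factor genes were lower in the paraquat library than in every other library. Klf4 (chr4:55527143-55532466, minus strand) had 5861 counts in the control, 4676 in the mastoparan, 1985 in the paraquat, 4172 in the Flag and 4408 in the CypD library. In CPM the paraquat library held 860 and the other 4 between 1276 and 1901. The deposited TPM of Klf4, a level per length, was 1221 in the control, 904 in the mastoparan and 370 in the paraquat library. Pou5f1 had 9473, 8397, 4312, 6056 and 7189 counts in the same order, Sox2 had 2912, 2587, 1213, 2680 and 2879, and Myc had 4448, 3912, 1908, 3445 and 3857. Their log2 ratios were -1.14 for Klf4, -0.85 for Sox2, -0.80 for Myc and -0.72 for Pou5f1. These 4 genes are not unusually long (median 1929 bases, against 2422 over all genes), and with the length trend removed their ratios were -1.07, -0.80, -0.88 and -0.89. Over all 2125 genes at 100 CPM or more, 23 (1.08%) were at least 1.5-fold lower and 114 (5.36%) at least 1.5-fold higher. The 4 factors are among those 23. In these files, counts of introduced copies cannot be told apart from those of the cells' own genes.

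Genes of the pluripotency network, which come on during reprogramming, were few and low. Of 27 listed genes 16 were measured, 5 above and 11 below 0, with a median of -0.18 that was -0.01 with the length trend removed. Alpl, the alkaline phosphatase used as an early stain, had 252 counts in the control, 240 in the mastoparan and 149 in the paraquat library (1.27 times lower, 1.03 to 1.56). Epcam, an adhesion molecule of epithelial and pluripotent cells, had 196, 168 and 130 (interval 0.900 to 1.42 times lower). Sall4, a zinc finger factor, had 24, 22 and 15, with 0 and 1 at day 4. Nanog had 21, 14 and 10 counts, and its interval of 0.709 to 3.74 times lower holds no difference. For Epcam, Sall4 and Nanog the depth did not allow a difference to be seen.

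Epithelial genes come on in the first phase of reprogramming, and some junction and polarity genes among them had counts at day 8 but almost none at day 4. Cldn7, a tight-junction protein (chr11:69964779-69967885, plus strand), had 22 counts in the control, 15 in the mastoparan and 39 in the paraquat library, and 0 and 2 in the Flag and CypD libraries. It was 2.37-fold higher than the control (1.37 to 4.19). Crb3, an apical polarity protein, had 29, 36 and 44 counts, with 1 and 2 at day 4 (2.03-fold higher, 1.24 to 3.36). Pkp3, a plakophilin of desmosomes, had 58, 67 and 65 (log2 ratio 0.57, interval of the fold 1.03 to 2.17). Cdh1, the epithelial cadherin, went the other way with 79, 69 and 52, and its interval of 0.791 to 1.65 times lower holds no difference. Of 23 measured epithelial genes, 12 were above and 11 below 0. At 1.5-fold 3 were higher and 1 lower, against 8.15% and 10.5% of all genes. The list median was 0.06, also with the length trend removed, and -0.28 on the deposited TPM, where the median of all genes was -0.29.

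In the NRF2 list, 15 of 32 genes lay above and 17 below 0, and the median of -0.04 was close to that of all genes (-0.03). The 6 regulators had a median of -0.27, with 5 of them below 0. Nfe2l2 itself had 312 counts in the control and 212 in the paraquat library, a log2 ratio of -0.14, and the small MAF partners Maff, Mafg and Mafk had ratios of -0.32, -0.38 and -0.55. The 26 targets had a median of 0.08, which was also 0.08 with the trend removed.

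Among single NRF2 targets, Cbr3, a carbonyl reductase (chr16:93683215-93690990, plus strand), stood highest. It had 78 counts in the control, 105 in the mastoparan, 111 in the paraquat, 61 in the Flag and 98 in the CypD library. It was 1.90-fold higher than the control (1.41 to 2.57), and its log2 ratio was 0.91, or 0.70 with the length trend removed. The classical targets did not follow. Hmox1, the inducible heme oxygenase, had 134, 134 and 77 counts in the control, mastoparan and paraquat libraries, and 93 and 108 at day 4. Its log2 ratio was -0.38, with an interval of 0.977 to 1.75 times lower. Nqo1, a quinone reductase, had 110, 111 and 92 (interval of the fold 0.838 to 1.49). Gclm, the modifier subunit of glutathione synthesis, had 118, 103 and 103 (1.17-fold, 0.886 to 1.53). Srxn1, the sulfiredoxin that repairs peroxiredoxins, had 84, 65 and 45 (interval 0.962 to 2.05 times lower). For these 4 genes the counting error spans no difference.

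Txnrd1, the cytosolic thioredoxin reductase, had 336, 310 and 200 counts (1.26 times lower, 1.05 to 1.51). Ugdh, which makes the sugar acid used in glucuronidation, had 187, 164 and 104 (1.35 times lower, 1.05 to 1.73). Me1, the cytosolic malic enzyme that makes NADPH, had 363, 398 and 341 (1.25-fold higher, 1.08 to 1.46). The 16 antioxidant genes with the response element core in the promoter window were above 0 in 6 and below 0 in 10 cases, with a median of -0.17 and a range from -0.72 (Abcc4, an efflux pump) to 0.53 (Sod1). The 35 genes without it in that window were above 0 in 28 cases, with a median of 0.31. Both groups come from the same lists, the lengths of their transcripts were not matched, and these ratios still hold the length trend. The 16 genes include the regulators Nfe2l2, Maff, Mafg and Mafk. Sequence farther than 250 bases before the start was not searched, so genes without a match may still have the element. Whether the element bears on the ratios was not tested.

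Enzymes that remove superoxide and peroxide were mostly above 0. Of 29 genes 25 lay above 0, 3 were at least 1.5-fold higher and 1 lower, and the median was 0.32. It was 0.16 with the length trend removed, when 22 lay above 0 and none was at least 1.5-fold higher. On deposited TPM it was 0.00, which lies 0.29 above the median of all genes on that scale. The median length of these genes was 1174 bases, against 2422 over all genes. Mastoparan had a median of 0.10 for them.

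Sod1, the cytosolic superoxide dismutase, had 1967 counts in the control, 1944 in the mastoparan and 2134 in the paraquat library (1.45-fold higher, 1.36 to 1.54), but its log2 ratio of 0.53 was 0.10 with the length trend removed. Sod2, the mitochondrial dismutase, had 634, 621 and 548 (1.15-fold higher, 1.03 to 1.30), and its ratio of 0.21 was 0.36 with the trend removed. Cat, the catalase gene, was below 0, with 393, 312 and 233 counts (1.26 times lower, 1.07 to 1.49). Gpx4, the peroxidase that reduces lipid hydroperoxides, had 1866, 1855 and 2166 (1.55-fold higher, 1.46 to 1.65), and 0.29 remained of its log2 ratio of 0.63. Txnrd2, the mitochondrial thioredoxin reductase, had the highest ratio, 0.66, from 29 counts in the control and 35 in the paraquat library, with an interval of 0.957 to 2.73 that holds no difference. Prdx1, Prdx2 and Prdx5, peroxiredoxins of the cytosol and, for Prdx5, also of mitochondria, had ratios of 0.32, 0.32 and 0.59, which were 0.11, -0.12 and 0.27 with the trend removed.

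**Figure D3:**
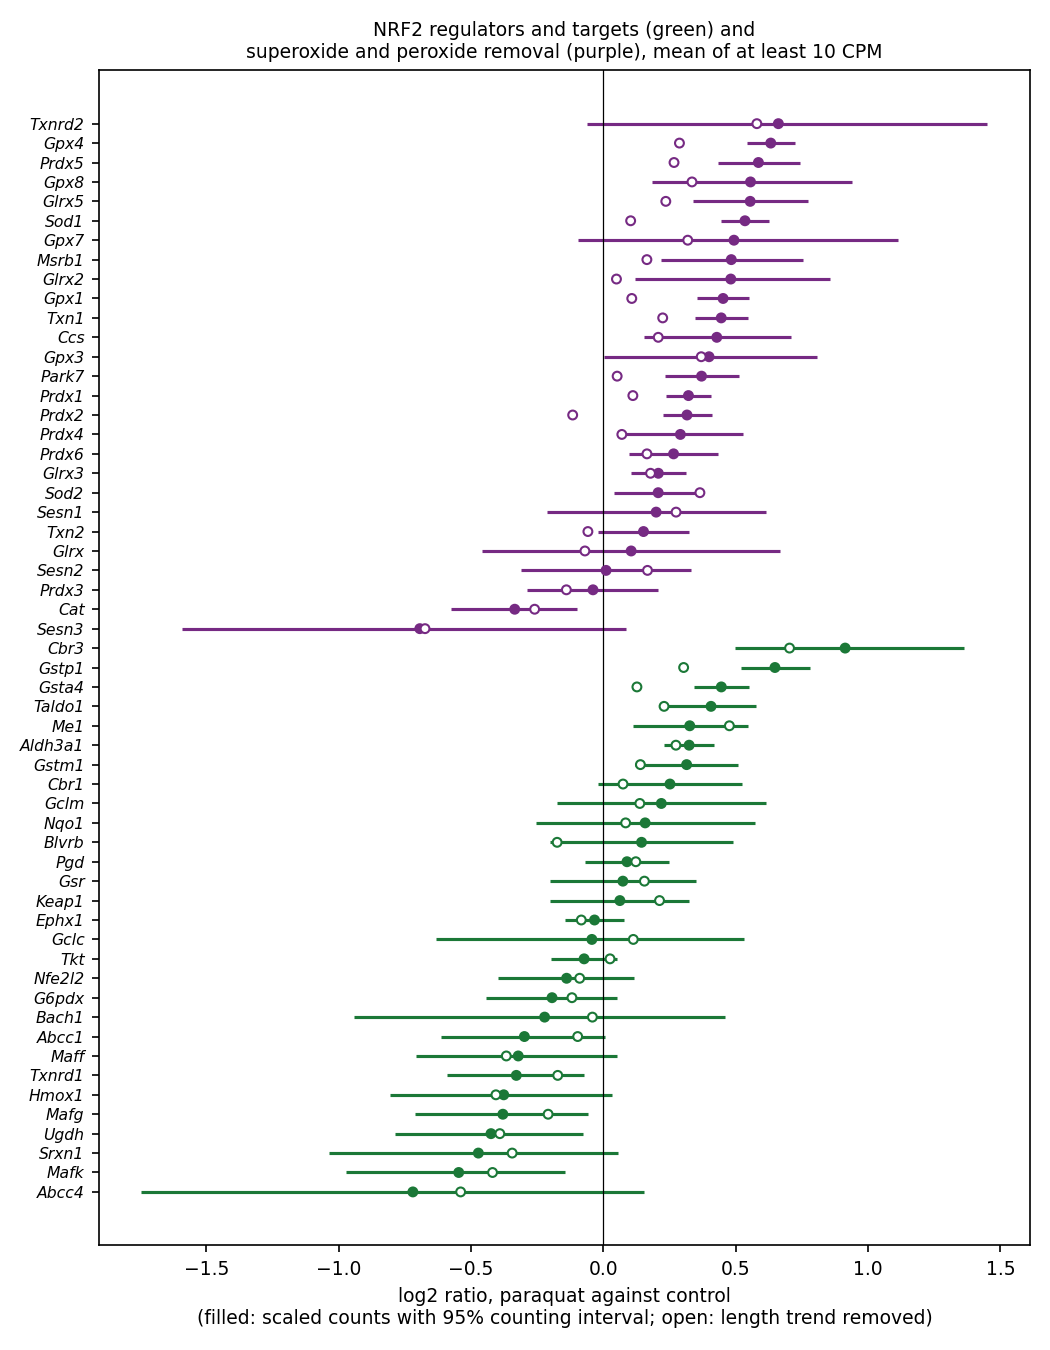
Log2 ratio of paraquat to control (horizontal axis) for each NRF2 regulator or target (green) and each gene of superoxide and peroxide removal (purple) with a mean of at least 10 CPM. Filled points are scaled counts with 95% counting intervals and open points have the length trend removed; most purple open points lie closer to 0 than the filled ones, and Cbr3 stands highest among the green genes.

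Genes for the uptake and redox cycling of paraquat were also followed. The organic cation transporter genes Slc22a2 and Slc22a3, the exporter gene Slc47a1 and the dopamine transporter gene Slc6a3 had from 0 to 4 counts in any library. Other listed transporter genes had more. Slc3a2 had 790 counts in the control, 676 in the mastoparan and 625 in the paraquat library. Slc7a5 had 197, 190 and 129, and Abcb1b had 83, 65 and 46, and the intervals of Slc3a2, Slc7a5 and Abcb1b hold no difference. Por, the cytochrome P450 reductase, which is a known electron donor to paraquat, had 362 counts in the control, 289 in the mastoparan and 237 in the paraquat library (interval 0.968 to 1.35 times lower). Cyb5r3, a cytochrome b5 reductase, had 1197, 1116 and 946 (1.06-fold, 0.968 to 1.15). Cyba, the small membrane subunit of NADPH oxidases, had 295, 276 and 365, with 173 and 244 at day 4, and was 1.65-fold higher than the control (1.41 to 1.93). Its ratio of 0.72 was 0.38 with the length trend removed. The catalytic subunits that pair with it were low: Nox4 had 8, 2 and 2 counts, Nox1 had 11, 11 and 12, and Cybb 0, 1 and 0. In all, 15 of 23 listed genes were measured, 6 above and 9 below 0.

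Of the measured genes of iron and metal handling, 4 were at least 1.5-fold higher and 1 lower, against 8.15% and 10.5% of all genes. The metallothionein genes Mt1 and Mt2, which bind zinc and copper and are short, were 1.56-fold (1.37 to 1.77) and 1.53-fold (1.30 to 1.81) higher. Their log2 ratios of 0.64 and 0.61 were 0.11 and 0.09 with the length trend removed. Slc25a37, the mitochondrial iron importer mitoferrin, had 137, 122 and 70 counts (1.47 times lower, 1.09 to 1.98), and Nfs1, the cysteine desulfurase of cluster assembly, had 268, 263 and 156 (1.29 times lower, 1.05 to 1.58). Of the 20 genes 10 were above and 10 below 0, with a median of -0.01.

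Most mitochondrial gene groups lay above 0, and most consist of short transcripts. Among respiratory chain and ATP synthase genes 72 of 76 lay above 0. Of them 21 passed 1.5-fold upward and 0 downward, against 8.15% and 10.5% of all genes. The median length of the respiratory chain and ATP synthase genes was 656 bases. The median log2 ratio was 0.45, and by complex it was 0.47 for complex I (37 genes), 0.24 for complex II (4), 0.42 for complex III (10), 0.57 for complex IV (10) and 0.41 for ATP synthase (15). With the length trend removed these became 0.09, 0.05, 0.09, 0.04 and 0.10, and 1 gene, Ndufa11, was still at least 1.5-fold higher. Ndufa11, an accessory subunit of complex I with a deposited length of 2661 bases, had 247 counts in the control, 278 in the mastoparan and 309 in the paraquat library, and 282 and 420 at day 4. It was 1.67-fold higher than the control (1.41 to 1.98), and 0.82 on the log2 scale with the trend removed. Long subunit genes stayed near 0, such as Ndufs1, with 289, 266 and 196 counts, and Sdha, with 622, 557 and 435, both with intervals that hold no difference.

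The mitochondrial ribosomal protein genes had the same form, with 70 of 77 above 0, 12 at least 1.5-fold higher, and a median of 0.36 that was 0.05 with the trend removed. Genes of mitochondrial protein import were above 0 in 21 of 24 cases (median 0.26, and 0.12 with the trend removed). On deposited TPM their median was -0.04, against -0.29 for all genes, a distance of 0.24. Timm13, a small chaperone of the intermembrane space, had 465, 481 and 567 counts (1.63-fold, 1.44 to 1.85), and kept a ratio of 0.52 with the trend removed. Genes of fusion, fission and quality control lay on both sides of 0 (15 above and 14 below, median 0.01). Clpp, the matrix protease, had 274, 262 and 314 counts (1.53-fold higher, 1.30 to 1.81). Polg2, the accessory subunit of the mitochondrial DNA polymerase, had 41, 36 and 51 (1.66-fold, 1.08 to 2.57). Chchd3, a cristae-organizing protein, had 426, 400 and 261 (1.22 times lower, 1.04 to 1.43).

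Of the genes tied to the permeability transition pore and calcium uptake, Smdt1, an essential regulator of the mitochondrial calcium uniporter, was highest. It had 215, 244 and 275 counts in the control, mastoparan and paraquat libraries (1.71-fold higher, 1.42 to 2.05), and 0.77 became 0.34 on the log2 scale with the trend removed. Mcu, the pore itself, had 140, 165 and 86 (interval 0.925 to 1.61 times lower). Ppif was 1.17-fold the control, with an interval of 0.856 to 1.60. The median over 15 genes was 0.03.

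Nuclear transport genes included 1 extreme gene. Ipo7 (chr7:110018274-110056609, plus strand) had 155 counts in the control, 141 in the mastoparan, 20 in the paraquat, 195 in the Flag and 213 in the CypD library. The other 4 libraries thus held from 49.5 to 77.0 CPM and the paraquat library 8.66 CPM, 5.80 times below the control (3.63 to 9.76). Its deposited TPM was 23.6 in the control, 22.4 in the mastoparan and 3.33 in the paraquat library. No other import receptor with little shared sequence was at least 1.5-fold lower. Its close relative Ipo8 had 155, 130 and 84 counts (1.38 times lower, 1.05 to 1.82). Among nucleoporin genes, Nupl1 had 29, 27 and 5 counts (4.34 times lower, 1.66 to 14.4), Nup98 had 23, 31 and 7 (2.46, 1.02 to 6.79) and Nup153 had 124, 122 and 61 (1.52, 1.11 to 2.10). Ranbp2, the large nucleoporin that binds RAN, had 131, 122 and 54 (1.82, 1.31 to 2.54), whereas Ran itself had 2541, 2374 and 2190 (1.15-fold higher, 1.09 to 1.22). Of 56 measured genes 17 lay above and 39 below 0, with a median of -0.15 that was -0.05 with the length trend removed. Of them 5 were at least 1.5-fold lower and 1, Kpna2, higher, both smaller shares than the 10.5% and 8.15% of all genes.

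Kpna2, an importin alpha, illustrates the genes for which reads can go to either of 2 sequences. It had 47 counts in the control and 153 in the paraquat library, a log2 ratio of 2.08, and shares 63.7% of its windows with the predicted gene Gm10184, which had 471 and 169. Summed, the pair had a ratio of -0.27. Rpgrip1, a ciliary protein, and its neighbour Supt16, a histone chaperone subunit, had ratios of 2.09 and -0.88, and -0.04 summed. Syn3, a synapsin, and Timp3, a metalloproteinase inhibitor that lies within it, had 1.61 and -0.95, and -0.26 summed. The lysosomal ribonuclease copies Rnaset2b and Rnaset2a had -1.63 and 1.33, and 0.18 summed. Echdc1 and Rnf146 had -2.74 and 0.66, and -0.56 summed. Vcl, the vinculin gene, and Ap3m1 had -1.57 and 0.02, and -0.18 summed. The separate values of these genes are therefore uncertain. In other cases the difference stayed after adding the partner that shares most. Slc38a6, an amino acid transporter, had a ratio of -0.73, and -0.66 summed with Noct.

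**Figure D4:**
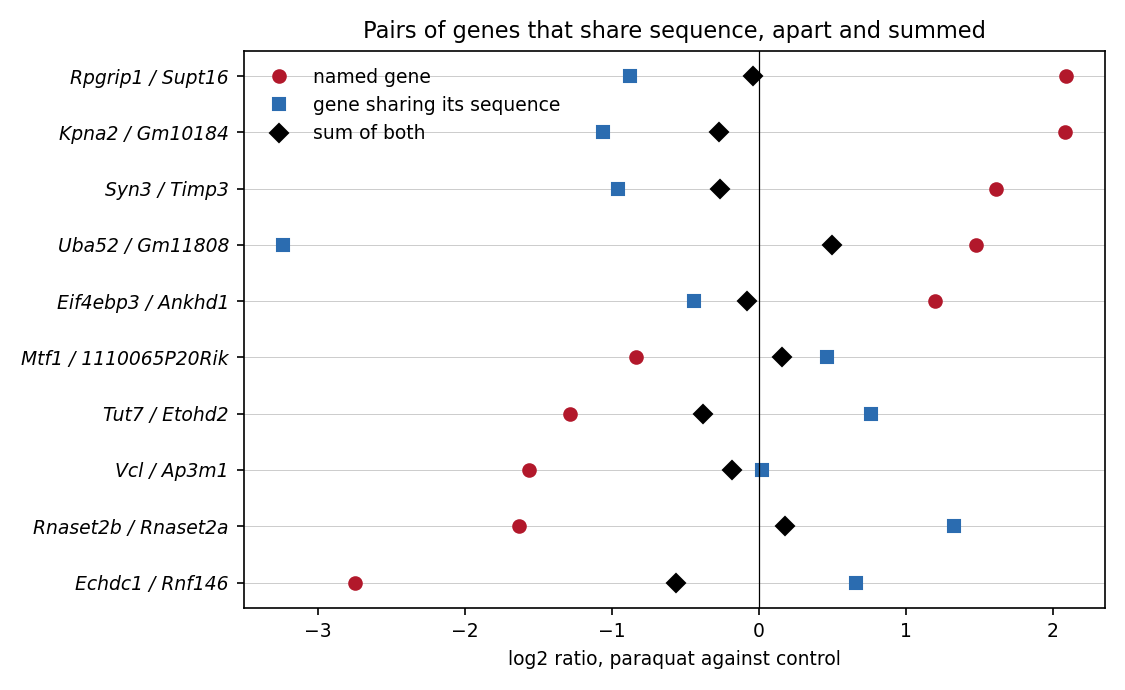
Log2 ratios of paraquat to control (horizontal axis) for 10 named genes (red), for the gene that shares sequence with each (blue), and for the counts of both added (black). In each pair the sum lies between its members, which follows from adding the counts. The 10 pairs were picked, and their sums are between -0.56 and 0.50. Other pairs kept larger differences, such as Pcdhgc3 with BC037039, at -2.21 summed.

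The cell-cycle genes did not move as a group. Replication genes lay above 0 in 21 of 35 cases (median 0.08, with 1 past 1.5-fold each way), and mitosis genes in 11 of 32 (median -0.09, with 0 higher and 3 lower). Gins3, a subunit of the replicative helicase complex, had 436 counts in the control, 475 in the mastoparan, 537 in the paraquat, 330 in the Flag and 459 in the CypD library. It was 1.65-fold higher than the control (1.45 to 1.87), with a log2 ratio of 0.72, or 0.81 with the length trend removed. Ccne1, the S-phase cyclin E1, had 131, 138 and 142 counts (1.45-fold, 1.13 to 1.85), while Ccne2 had 38, 35 and 17 (interval 0.922 to 3.16 times lower). Kif11, the motor that separates spindle poles, had 181, 156 and 75, and 199 and 295 at day 4 (1.81 times lower, or -0.84 on the log2 scale with limits of -1.26 and -0.46). Smc2, a condensin subunit, had 115, 99 and 53 (1.62, 1.16 to 2.29). Plk1, a mitotic kinase, had 204, 163 and 104 (1.47, 1.15 to 1.88). Cenpa, the centromeric histone, was above 0 with 284, 331 and 303 (1.43-fold, 1.21 to 1.68).

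Targets of p53, which respond to DNA damage, stayed within 1.5-fold in all 22 cases, with 13 above and 9 below 0 and a median of 0.02. Cdkn1a, the cell-cycle inhibitor p21, had 2411, 2295 and 1948 counts in the control, mastoparan and paraquat libraries, and was 1.08-fold the control (1.02 to 1.15). Mdm2, the p53 ubiquitin ligase, had 310, 294 and 211 (interval 0.920 to 1.32 times lower). Cdkn2a, which encodes inhibitors that limit reprogramming, had 630, 575 and 616, a ratio of 0.38 that was 0.07 with the trend removed. DNA repair genes lay below 0 in 17 of 26 cases with a median of -0.08. Rad50, of the break-sensing complex, had 135, 124 and 67 counts (1.51 times lower, 1.12 to 2.05) and Brca1 had 93, 92 and 47 (1.48, 1.03 to 2.15).

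Genes of the apoptosis machinery lay on both sides of 0. Apaf1, the scaffold that activates caspase 9, had 101 counts in the control, 80 in the mastoparan and 46 in the paraquat library (1.64 times lower, 1.15 to 2.38), and Casp9 had 70, 71 and 34 (1.54, 1.01 to 2.39). Bmf, a BH3-only protein, had 65, 48 and 29 (1.68, 1.07 to 2.70). Bax, a pore-forming effector, was above 0 with 994, 970 and 1040 (1.40-fold, 1.28 to 1.53), and 0.16 remained of its ratio of 0.48. Of the 22 measured genes 5 were at least 1.5-fold lower and 0 higher, with a median of -0.10 that was -0.00 with the trend removed, when 3 were lower. Over all genes, 10.5% were at least 1.5-fold lower, and 8.48% with the trend removed.

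Fibroblast matrix genes lay below 0 in 30 of 42 cases. Of them 4 were at least 1.5-fold lower and 1 higher, against 10.5% and 8.15% of all genes. Transcripts of the matrix genes are long (median 4058 bases), and their median ratio of -0.24 was -0.05 with the length trend removed. Collagen genes were below 0 in 12 of 13 cases, with a median of -0.26 that was -0.09. Besides Eln, the proteoglycan gene Dcn had 74, 76 and 30 counts (1.85 times lower, 1.19 to 2.92), and Lum had 11, 11 and 2. Thbs1, a matrix glycoprotein, had 1298, 1052 and 681 (1.43 times lower, 1.30 to 1.57), and Loxl2, a collagen cross-linking oxidase, had 291, 274 and 152 (1.43, 1.17 to 1.76). Lox, its relative, had 197, 188 and 167, with an interval of 0.916 to 1.40 that holds no difference. Vim, the fibroblast intermediate filament, had 10501, 9849 and 8279, or 1.05-fold the control (1.02 to 1.08).

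Regulators of chromatin and genes of the centrosome and cilium, both groups of long transcripts (medians 5251 and 5505 bases), lay below 0 in 34 of 37 and 20 of 24 cases. Their medians of -0.23 and -0.31 were -0.06 and -0.12 with the trend removed. Kmt2c, an enhancer histone methyltransferase, had 47, 41 and 11 counts (3.20 times lower, 1.64 to 6.84), and kept a ratio of -1.38. Ep300, a histone acetyltransferase, had 127, 80 and 53 (1.79, 1.29 to 2.52), and Dnmt1, the maintenance DNA methyltransferase, had 498, 428 and 272 (1.37, 1.18 to 1.59). Cep290, of the ciliary transition zone, had 20, 17 and 8, with an interval that holds no difference.

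Immediate-early genes report on growth factor and stress signalling. Of the 26 measured, 3 were at least 1.5-fold lower, a share close to the 10.5% of all genes. These 3 were dual-specificity phosphatases, which switch off MAP kinases. Dusp1 had 182 counts in the control, 127 in the mastoparan, 79 in the paraquat, 309 in the Flag and 394 in the CypD library, and was 1.72 times lower than the control (1.32 to 2.28). Dusp4 had 41, 26 and 15 in the day-8 libraries (2.05 times lower, 1.11 to 3.98), and Dusp6 had 147, 130 and 71 (1.55, 1.16 to 2.09). Dusp5 had 134, 117 and 103 (1.03-fold, 0.786 to 1.34). The AP-1 genes Fos and Jun had 408, 326 and 234 counts and 248, 200 and 135 (1.31 and 1.38 times lower). Of 26 measured genes 9 lay above and 17 below 0, with a median of -0.10 that was -0.07 with the length trend removed. Mastoparan had a median of -0.08 against the same control.

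Secreted and inflammatory genes were low, with 13 of 21 measured. Icam1, a leukocyte adhesion molecule, had 11 counts in the control, 8 in the mastoparan, 0 in the paraquat, 10 in the Flag and 8 in the CypD library, which is at least 2.74 times lower against a floor of 3 counts in the paraquat library. The exact counting limit on the same counts is lower, 1.88 times. Tnfaip3, a brake on NF-kB signalling, had 23, 12 and 7 (2.46 times lower, 1.02 to 6.79). Il1b, Tnf and Cxcl2 had 0 counts in all 5 libraries, and Il6 had 0 at day 8. Of the hypoxia targets, Vegfa had 382, 321 and 185 counts and Adm 36, 21 and 12, while Higd1a, a mitochondrial hypoxia protein, had 553, 549 and 556 (1.34-fold higher, 1.19 to 1.51).

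The integrated stress response, through which ATF4 answers amino acid shortage and mitochondrial stress, was centred on 0 (11 of 22 above, median 0.00). Atf4 had 628, 570 and 518 counts (1.10-fold, 0.979 to 1.24), Asns, the asparagine synthetase, had 312, 362 and 264 (1.13-fold, 0.956 to 1.34), and Ddit3 had 75, 50 and 61. Mthfd2, a mitochondrial folate enzyme, had 122, 110 and 64 (1.43 times lower, 1.05 to 1.96). Gdf15 had 11, 25 and 7 (interval 0.416 to 3.58 times lower). Of 21 heat shock and folding genes 10 lay above and 11 below 0. Hspa1b had 83, 52 and 24 counts and shares 62.6% of its windows with Hspa1a, at 36 and 29 in the control and paraquat libraries. Summed, the pair had 119 and 53 counts, a log2 ratio of -0.74.

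Abundant genes offer the most precise ratios. Among genes at 100 CPM or more with little shared sequence, the highest with the length trend removed included Dtnb, a dystrobrevin of the membrane-linked dystrophin complex (chr12:3572381-3781796, plus strand). It had 1861 counts in the control, 1960 in the mastoparan, 2260 in the paraquat, 1289 in the Flag and 1856 in the CypD library. It was 1.62-fold higher than the control (1.53 to 1.73), and 0.85 on the log2 scale with the trend removed. Tlcd1, a regulator of membrane lipid composition, had 3998, 4159, 4577, 2769 and 4260 in the same order (1.53-fold, 1.47 to 1.60). Pcsk1n, an inhibitor of proprotein convertase 1, had 309, 263, 388, 69 and 92 (1.68-fold, 1.44 to 1.95). On the lower side, after the 4 factors, Cct6a, a subunit of the TRiC chaperonin, had 574, 565, 280, 736 and 979 (1.53 times lower, 1.33 to 1.78). Hnrnph1, a splicing regulator, had 551, 494, 286, 819 and 1172 (1.44, 1.25 to 1.67).

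**Figure D5:**
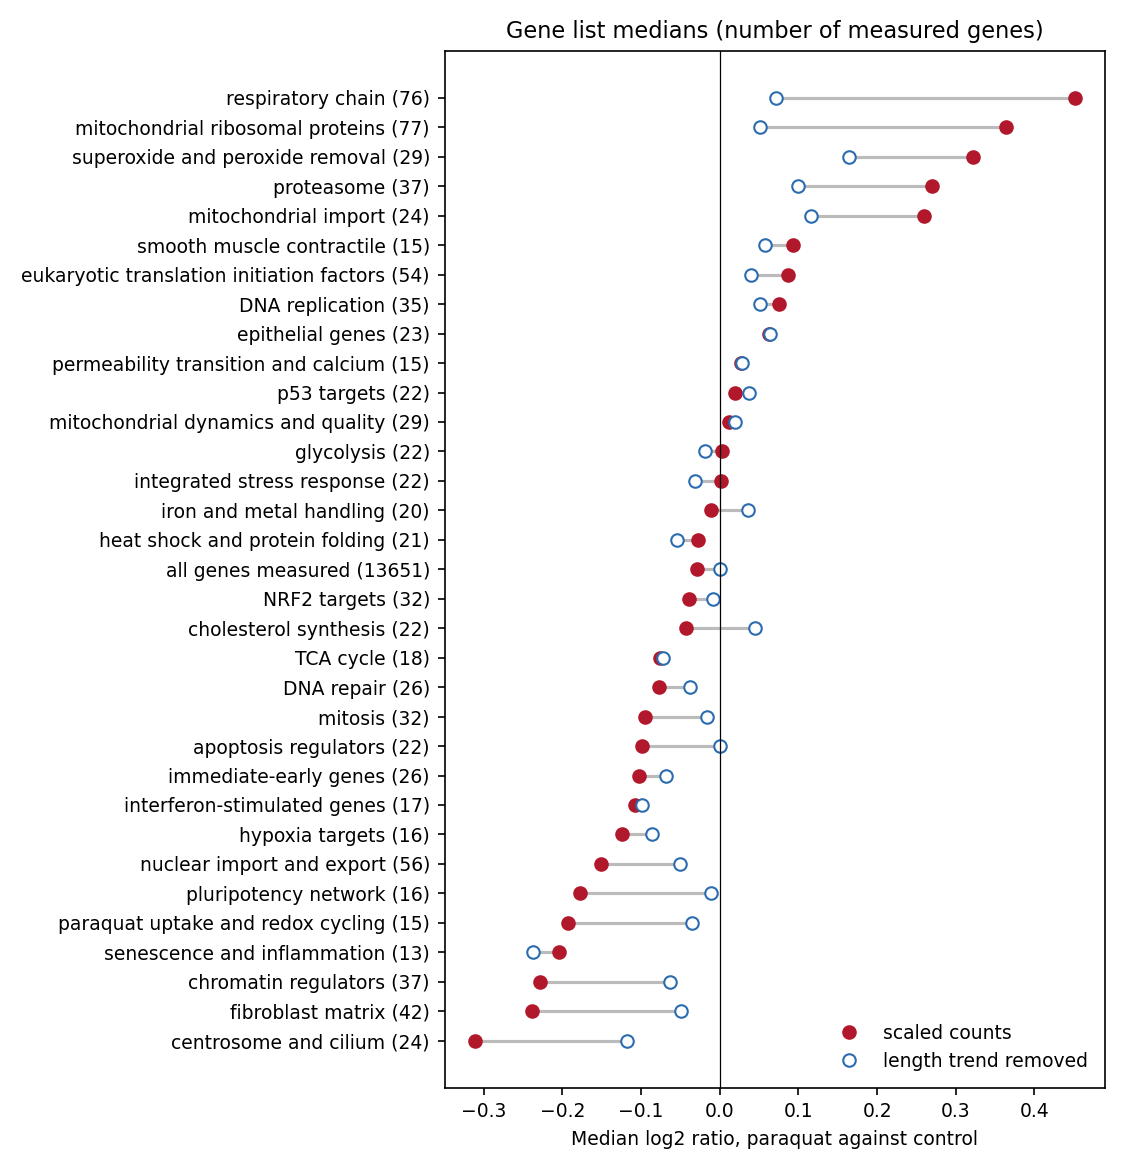
Median log2 ratio of paraquat to control (horizontal axis) for each gene list with at least 10 measured genes, named on the vertical axis with that number, and for all genes measured. Filled points are scaled counts and open points have the length trend removed; the lists at both ends, from 0.45 for the respiratory chain to -0.31 for centrosome and cilium, move toward 0.

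Small sets of defining markers of cell types other than fibroblasts were at lower levels than the fibroblast markers in both libraries. Endothelial markers summed to 55.8 CPM in the control and 48.5 CPM in the paraquat library, nearly all from Tek, with Cdh5 at 0 in all 5 libraries. Macrophage markers summed to 18.5 and 17.8 CPM, mostly from Cd68, with Adgre1 at 0 in all libraries. Neural markers summed to 3.57 and 8.23 CPM, and keratinocyte markers to 93.1 and 107 CPM, mostly from Krt14. The wider neural list summed to 111 and 112 CPM, and the wider keratinocyte list to 373 and 424 CPM. The defining skeletal muscle markers Myod1, Myog and Ckm were at 0 in every library. Of the wider muscle list Tnni1, a troponin subunit, had 132 counts in the control and 105 in the paraquat library (42.8 and 45.5 CPM), and Des, the desmin gene, had 9 and 15. Over the 9 defining sets the summed level differed by less than 1.5-fold between the libraries, except for the neural and erythroid sets. In the neural set Sox1 had 9 counts in the control and 15 in the paraquat library, with an interval of 0.913 to 5.77 that holds no difference. Map2 of the wider neural list went the other way, with 34 and 12 counts (2.12 times lower, 1.07 to 4.50). The defining erythroid set had 0 and 1 count. Hbb-y of the wider erythroid list had 193 and 201 (1.39-fold higher, 1.14 to 1.70), and 0.04 remained of its log2 ratio of 0.47 with the length trend removed. The part of these cell types in the gene results was not tested.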

How the data were processed

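RNA was extracted with Trizol from MEFs and 1 ug was made into libraries with a TruSeq kit, per the labels' protocols. Bowtie2 2.2.5 and the build mm10 are named in the submitters' processing notes. Neither the counting program nor the gene models behind it are named in these sources. The authors deposited expected counts, which are estimated reads per gene that need not be whole, per the file headers. They also deposited TPM values, which are scaled for transcript length and library, per the file headers, and FPKM values, which were not used. The deposited length is each gene's average transcript length, per the file headers.

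The 5 libraries were grouped by title, with 1 library per group, and labels carry no replicate numbers. Expected counts were rounded and scaled by TMM factors (edgeR 4.0.16 in R 4.3.3), and no gene was tested. Gene IDs were matched to GENCODE M21 on GRCm38 (28756 of 29267). Genes whose mean over the day-8 libraries reached 1 CPM were kept, a pseudocount of 0.5 CPM was added, and 2-fold (1.5-fold for lists) counted as a call. The length trend was removed with the medians of 40 bins. Shared sequence was the share of 49-base windows of a gene's transcripts found in another gene. The tables of genes were written with Python 3.11.15. The ratio and trend code was tested on simulated data.

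Named genes were those past 2-fold at 20 CPM or more with under 20% shared sequence, the 10 at each end at 100 CPM or more with the length trend removed, up to 4 members per list, and genes of fixed lists. Further list members were named after their values were seen. Members and lists were chosen with earlier results of these data known. Not every gene taken by this rule is reported here, and ribosomal protein and mitochondrially encoded genes were not analysed here as lists. Alternatives were other scalings (library totals, DESeq2 1.42.0 size factors, upper quartile, deposited TPM), filters, pseudocounts, and leaving out shared sequence or the 20 most abundant genes. TPM centred on the median of all genes was added after the data were seen.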

Additional observations from a re-analysis of the deposited data

How the results depend on the processing

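Of 122 named genes whose counting interval excludes no difference, 119 kept their sign under each alternative that was run for them (filters and TPM leave some genes out). Of 13 list medians at least 0.2 from 0, 11 kept theirs, and of the 25 closer to 0, 17 changed sign at least once. On deposited TPM, 799 genes were at least 2-fold lower, and the medians of mitochondrial import and proteasome genes were -0.042 and -0.017, below 0 as the whole scale shifts: centred on the median of all genes they were 0.24 and 0.27. The median of all genes was -0.29 on TPM, and -0.13 with library totals alone, against -0.03. Tspo went to -0.0080 on TPM and -0.066 with the length trend removed, Vdac3 to -0.0078 on TPM, and Hk2 to 0.10 on centred TPM. The counts of 2-fold higher and lower genes were 658 and 1098 without a filter, 88 and 153 at a minimum of 5 CPM, and 125 and 186 with a pseudocount of 2 CPM, which shows how many of the 325 and 479 rest on low counts. The length gap stayed between -0.51 and -0.42 under all alternatives that gave one. No paired analysis was possible because each group is 1 library and the labels carry no replicate numbers, and for the same reason no replicate could be left out. Depth limits low genes, such as Nanog and Txnrd2, whose counting intervals span no difference.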

Other observations

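Genes of central metabolism lay close to 0. Of 22 glycolysis genes none passed 1.5-fold, and their log2 ratios ran from -0.47 to 0.19 with a median of 0.00. Hk1, a hexokinase, had 704 counts in the control, 568 in the mastoparan and 379 in the paraquat library (1.39 times lower, 1.23 to 1.58). Slc2a1, the main glucose transporter, had 2564, 2368 and 1569 (1.22 times lower), and 411 and 601 at day 4, so that both day-8 levels were far above those of day 4. Of 18 genes of the tricarboxylic acid cycle none passed 1.5-fold, with a median of -0.08. Dlst, a subunit of the oxoglutarate dehydrogenase complex, had 494, 457 and 282 counts (1.31 times lower), and Mdh2, the mitochondrial malate dehydrogenase, had 1701, 1653 and 1638 (1.29-fold higher, 1.20 to 1.38). None of 22 cholesterol synthesis genes passed 1.5-fold either, with a median of -0.04.

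Proteasome genes lay above 0 in 32 of 37 cases with a median of 0.27, which was 0.10 with the length trend removed. On deposited TPM it was -0.02, which lies 0.27 above the median of all genes on that scale. Translation initiation factors had a median of 0.09 over 54 genes. Among them Eif4ebp2, which holds back cap-dependent translation, had 71, 50 and 24 counts (2.21 times lower, 1.38 to 3.68), with 80 and 105 at day 4. Of 17 measured interferon-stimulated genes 11 lay below 0. The most abundant, B2m and Bst2, lay above 0, and Bst2, tetherin, had 352, 295 and 318 counts (1.21-fold, 1.03 to 1.41). The log2 ratios of B2m and Bst2, 0.21 and 0.27, were -0.14 and -0.07 with the length trend removed. Irf1, a regulator of interferon genes, had 70, 69 and 36 counts (interval 0.960 to 2.24 times lower). Irf7, an interferon regulatory factor, had 18, 11 and 7 counts (0.767 to 5.45 times lower). Isg15, a ubiquitin-like modifier, had 3, 4 and 7 (interval of the fold 0.712 to 18.7). The intervals of Irf1, Irf7 and Isg15 hold no difference.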
